A study of Mus musculus with 12 samples.

Results

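The transcripts described here encode albumin and 9 other carrier proteins that hepatocytes secrete into plasma, namely Alb, Afp, Ttr, Trf, Ahsg, Fetub, Gc, Rbp4, Ambp and Hpx. They were taken as the rows of the 12 liver count tables whose gene symbol is one of these names. Each symbol matched 1 row, which gave 10 of the 22609 genes in the tables, and 10 of 10 passed the filter on low counts that left 13684 genes for testing.

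RNA was sequenced from livers of untreated adult mice of 4 genotypes with 3 mice each. AEG1 mice carried the Alb/AEG-1 transgene, MYC mice carried Alb/c-Myc, AEG1_MYC mice carried both, and WT mice carried neither. All came from crosses between heterozygous carriers of the 2 lines, and the series asks how the 2 oncogenes act together in the formation of liver cancer. In both lines the transgene is read from an albumin promoter, which is active in hepatocytes, so the transgenes share a control element with the most abundant of the transcripts described here. Beyond adult, the labels give no age, and they give no sex, tumour status, litter, time of day or batch, and livers were sampled as whole tissue. Replicate numbers follow the order of deposit within a genotype and pair no mice between genotypes.

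Carrier proteins keep hormones, vitamins, metals, lipids and heme soluble in blood and protect them from loss or from harmful reactions. Most are made by hepatocytes from promoters bound by liver-enriched factors such as HNF4, FOXA and C/EBP proteins. Alb, Afp, Gc and Afm are descended from a common ancestral gene and lie near each other on mouse chromosome 5, and Afp is the fetal counterpart of albumin, silenced after birth and often active again in liver tumours.

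The 250 bases upstream of the RefSeq start (GRCm38.p6) are shown for the 3 members of this family, because an albumin promoter drives both transgenes, although the labels do not give the fragment used, and because Alb and Afp are the adult and the fetal carrier of the family. The Alb sequence is chr5:90460620-90460869 on the plus strand, the Afp sequence chr5:90490464-90490713 on the plus strand, and the Gc sequence chr5:89457899-89458148, read 5′ to 3′ on the minus strand. Capitals mark CCAAT boxes on either strand, a promoter element that NF-Y and other proteins bind.
Alb: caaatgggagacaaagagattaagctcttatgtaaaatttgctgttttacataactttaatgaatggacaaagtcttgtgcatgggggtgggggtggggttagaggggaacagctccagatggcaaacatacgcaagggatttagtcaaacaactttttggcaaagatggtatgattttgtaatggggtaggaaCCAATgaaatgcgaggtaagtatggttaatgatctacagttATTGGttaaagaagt
Afp: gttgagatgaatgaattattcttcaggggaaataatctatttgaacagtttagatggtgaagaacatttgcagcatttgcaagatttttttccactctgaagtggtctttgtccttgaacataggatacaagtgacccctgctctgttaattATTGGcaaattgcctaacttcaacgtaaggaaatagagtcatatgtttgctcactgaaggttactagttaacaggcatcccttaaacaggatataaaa
Gc: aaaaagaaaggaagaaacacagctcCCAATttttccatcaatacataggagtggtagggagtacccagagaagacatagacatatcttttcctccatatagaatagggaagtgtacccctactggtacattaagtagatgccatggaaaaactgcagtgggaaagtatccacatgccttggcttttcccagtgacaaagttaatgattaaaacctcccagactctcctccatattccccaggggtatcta
In Alb a CCAAT box lay 56 to 52 bases upstream of the start on the strand of the gene, and another lay 15 to 11 bases upstream on the opposite strand. In Afp the box lay 98 to 94 bases upstream on the opposite strand, and in Gc it lay 225 to 221 bases upstream on the strand of the gene. In Afm, the fourth gene of the family, it lay 192 to 188 bases upstream on the strand of the gene. In the GENCODE annotation Alb and Afp start further downstream, at 90460897 and 90490737, and the Alb and Afp distances would be longer from there. For this box the letters searched were CCAAT on both strands, and 11120 of 32851 RefSeq promoters of this length held a match (33.8%). The letters TATAAA and TTCNNNGAA were searched too, and their matches are not given here. The promoters of Ambp and Hpx also held a match, as did that of the first of 2 RefSeq starts of Fetub and of Rbp4, that of Ahsg held none, and those of Ttr and Trf are not shown here. The stretches searched for Ahsg and Ambp lay inside the GENCODE genes. Those genes start further upstream, at 22891277 for Ahsg and at 63154799 on the minus strand for Ambp. The motif was chosen after the sequences had been seen, and a match describes letters only, not an occupied site.

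Each library held between 21931197 and 40552316 reads in genes. Levels are given as CPM, read counts scaled to a common total over TMM-scaled library sizes. As a check of the labels, Myc had 3.54 to 4.59 CPM in AEG1 livers, 23.4 to 53.8 CPM in MYC livers, 58.4 to 165.1 CPM in AEG1_MYC livers and 2.26 to 4.73 CPM in WT livers. Mtdh, the mouse gene of AEG-1, stood at 89.0 to 112.4 CPM in all 12 libraries, and it checks no label, because the species of the AEG-1 transgene is not stated. The AEG1_MYC libraries differed from the others and also among themselves. On the first principal component of all genes (39.9% of the variance) replicates 1, 2 and 3 scored 23.2, 68.3 and 6.49, against -18.0 to 1.26 in the other 9 libraries. Replicate 2 also had a summed level of 8.27 CPM for 4 genes of the Y chromosome (Ddx3y, Eif2s3y, Kdm5d, Uty), against 172.4 to 285.3 CPM elsewhere. Whether that mouse was of another sex than the others, or whether its liver sample held a tumour, is not given in the labels. In values that rest on it, differences of sex, of tumour content and of genotype cannot be told apart. For the 10 transcripts and part of the genes named below, the AEG1_MYC values without replicates 1 and 2 are therefore given beside those of all libraries. Other genes, such as Lpl, Gpc3, Igf2, Dbp, Tef, Nfil3 and Itih2, are given without this check.

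Alb, whose product carries fatty acids, bilirubin, hormones and drugs and sets the osmotic pressure of plasma, was lower in every transgenic library than in any WT library. It had 64884, 72878 and 62878 CPM in the AEG1 livers. It had 69971, 57471 and 53122 CPM in the MYC livers. It had 39734, 24138 and 55931 CPM in the AEG1_MYC livers, against 92835, 83489 and 85711 CPM in the WT livers. WT thus stood alone at the top, a pattern whose share over all tested genes was not counted. Below it, the ranges of AEG1, MYC and AEG1_MYC overlapped their neighbours in the order of means, and the lowest library of all was AEG1_MYC replicate 2. The means were 66880 ± 5291 CPM in AEG1, 60188 ± 8747 CPM in MYC, 39935 ± 15898 CPM in AEG1_MYC and 87345 ± 4883 CPM in WT (SD, n = 3 each), so that the transgenic means stood at 76.6%, 68.9% and 45.7% of the WT mean. Because whole liver was sequenced, fewer cells of a type and less RNA per cell cannot be told apart.

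Against WT, the Alb difference in AEG1_MYC was -1.13 ± 0.28 on the log2 scale (SE, 95% interval -1.75 to -0.50), with an adjusted p of 0.122 in edgeR's quasi-likelihood test. This missed the threshold of 0.05, as did the differences of -0.39 ± 0.28 in AEG1 (adjusted p = 1) and -0.54 ± 0.28 in MYC (adjusted p = 0.999). The SEs are alike because the fit pools the spread of all genotypes, AEG1_MYC included. The difference of AEG1_MYC from AEG1 livers was -0.74 ± 0.28 (adjusted p = 0.218), and it was -0.48 without AEG1_MYC replicate 2 and -0.25 without replicates 1 and 2. Over the factorial design, the difference of c-Myc carriers from non-carriers was -0.64 ± 0.20 (adjusted p = 0.271), and that of AEG-1 carriers from non-carriers was -0.49 ± 0.20 (adjusted p = 0.507). These were -0.39 and -0.24 without AEG1_MYC replicates 1 and 2. The interaction of the 2 transgenes, which asks whether their joint difference departs from the sum of the single ones, was -0.21 ± 0.40 for Alb (95% interval -1.08 to 0.67, adjusted p = 0.898), and it was 0.05 without AEG1_MYC replicate 2 and 0.28 without replicates 1 and 2. The AEG1_MYC value rested partly on which mice were included. It was -0.87 (adjusted p = 0.195) without replicate 2, -0.64 (adjusted p = 0.764) without replicates 1 and 2, and -1.44 (adjusted p = 0.0172) without replicate 3. With all 12 libraries DESeq2 called it (adjusted p = 0.00142).

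**Figure D1:**
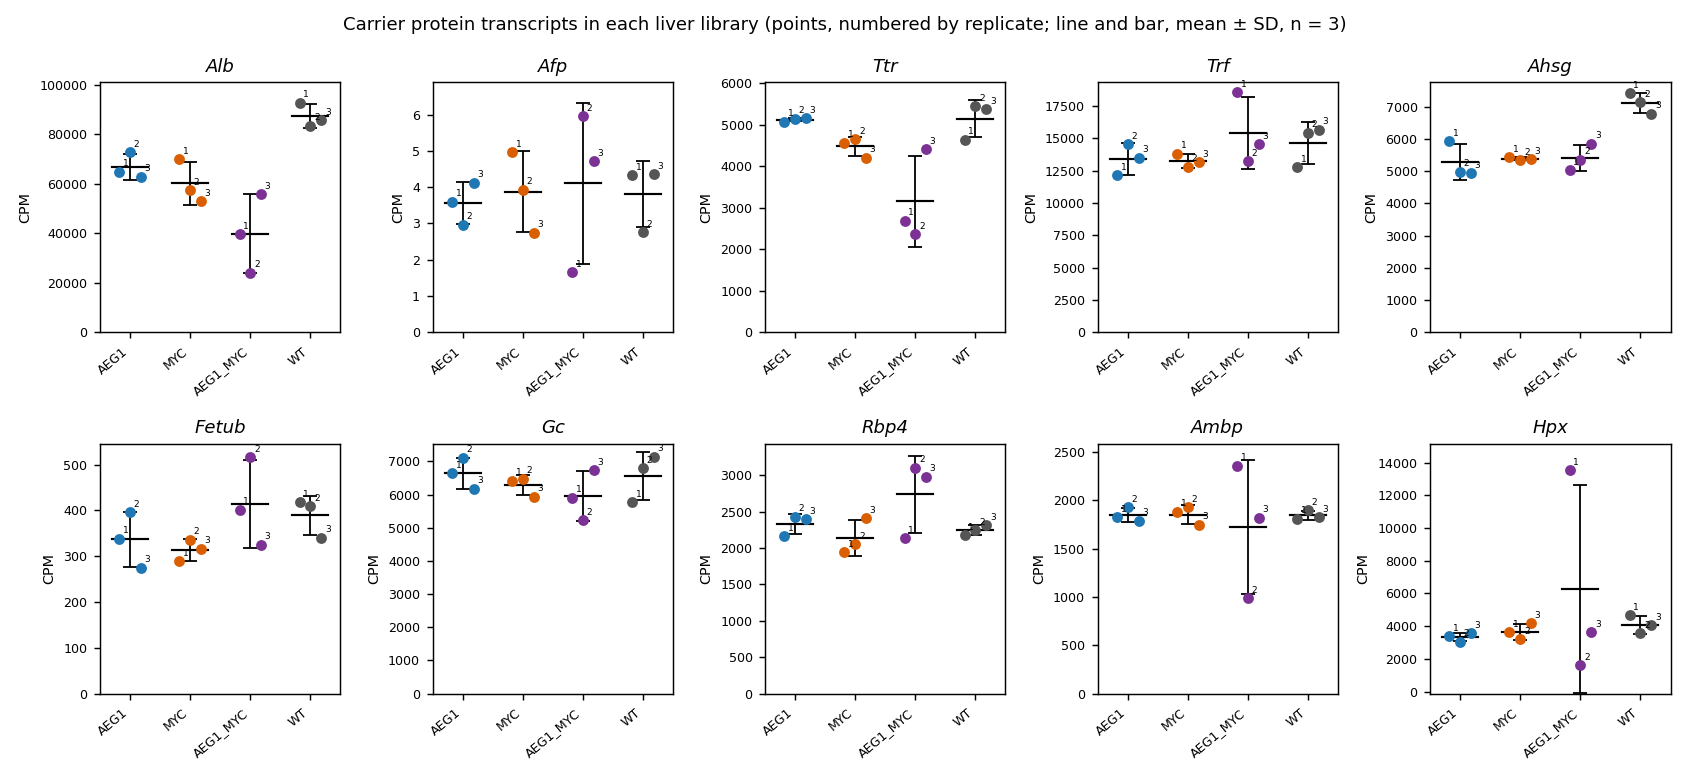
CPM (y axis, linear, 1 panel per transcript) in each of the 12 livers by genotype (x axis). Points are single libraries numbered by replicate, and lines and bars are means ± SD (n = 3). For Alb and Ahsg all 9 transgenic points lie under the lowest WT point, at 83489 CPM for Alb and 6787 CPM for Ahsg, and for Hpx the AEG1_MYC points span 1614 to 13529.7 CPM.

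Afp, the fetal carrier, had few reads in every genotype. It had 3.60, 2.96 and 4.12 CPM in AEG1 livers and 4.97, 3.93 and 2.74 CPM in MYC livers. It had 1.65, 5.96 and 4.72 CPM in AEG1_MYC livers, against 4.33, 2.76 and 4.36 CPM in WT livers. These levels came from 50 to 201 reads per library, the 4 genotypes overlapped throughout, and both the highest and the lowest library were AEG1_MYC. The AEG1_MYC difference from WT was 0.11 ± 0.41 on the log2 scale, with a 95% interval of -0.79 to 1.01 and an adjusted p of 0.91. It was 0.31 without AEG1_MYC replicates 1 and 2, and it was -0.26 without replicate 2 alone. Per kilobase of transcript, mean Alb CPM was 19000 times that of Afp in AEG1, 15700 times in MYC, 9850 times in AEG1_MYC and 23200 times in WT.

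Gc encodes the vitamin D-binding protein, which also scavenges actin. It averaged 6639 ± 465 CPM in AEG1, 6279 ± 297 CPM in MYC, 5952 ± 754 CPM in AEG1_MYC and 6563 ± 717 CPM in WT (SD, n = 3 each). The ranges of all neighbouring genotypes overlapped, and the AEG1_MYC difference from WT was -0.14 ± 0.16 on the log2 scale (adjusted p = 0.668) and 0.04 without AEG1_MYC replicates 1 and 2. Gc spanned only 1.37-fold from the lowest library to the highest, against 3.85-fold for Alb. Afm, which encodes the vitamin E carrier afamin and stands beside Alb and Afp, averaged 362.1 CPM in AEG1, 292.5 CPM in MYC, 295.1 CPM in AEG1_MYC and 362.3 CPM in WT. Its AEG1_MYC difference from WT was -0.30 ± 0.18 (adjusted p = 0.41), and -0.08 without AEG1_MYC replicates 1 and 2.

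Ttr and Rbp4 act together in plasma, where transthyretin carries thyroxine and holds the retinol-binding protein in a complex too large to be filtered by the kidney. Ttr had 5079, 5151 and 5157 CPM in AEG1 livers. It had 4569, 4655 and 4213 CPM in MYC livers. It had 2692, 2367 and 4416 CPM in AEG1_MYC livers, against 4638, 5447 and 5372 CPM in WT livers. AEG1 lay within the WT range, and MYC lay wholly under AEG1. MYC against AEG1 was not among the comparisons tested, and the share of all genes was not counted for it. All 3 AEG1_MYC libraries lay under every AEG1 and WT library, with replicate 3 inside the MYC range. The AEG1_MYC difference was -0.71 ± 0.22 against WT (adjusted p = 0.17), -0.70 ± 0.22 against AEG1 (adjusted p = 0.16) and -0.50 ± 0.22 against MYC (adjusted p = 0.308) on the log2 scale in edgeR. Without AEG1_MYC replicates 1 and 2 it was -0.22 against WT (adjusted p = 0.888), -0.21 against AEG1 and -0.02 against MYC. Against WT it was -1.01 (adjusted p = 0.00918) without replicate 3. DESeq2 called the difference from WT (adjusted p = 0.0285) and that from AEG1 (adjusted p = 0.0264).

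Rbp4, which carries retinol out of the liver, had its highest mean in AEG1_MYC, the genotype with the lowest Ttr mean. It had 2165, 2431 and 2394 CPM in AEG1 livers and 1947, 2055 and 2410 CPM in MYC livers. It had 2131, 3103 and 2981 CPM in AEG1_MYC livers, against 2179.9, 2241 and 2316 CPM in WT livers. AEG1_MYC replicates 2 and 3 were the 2 highest libraries of all, while replicate 1 lay under the WT range. The AEG1_MYC difference from WT was 0.29 ± 0.17 (adjusted p = 0.395), and it was 0.41 (adjusted p = 0.808) without replicates 1 and 2. In AEG1_MYC replicate 2 Ttr was 1.12 below the WT mean on the log2 scale and Rbp4 was 0.47 above it.

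Trf and Hpx protect tissues from free iron and free heme. Trf, the gene of transferrin, averaged 13409 ± 1204 CPM in AEG1, 13269.5 ± 521.5 CPM in MYC, 15451 ± 2784 CPM in AEG1_MYC and 14644 ± 1603 CPM in WT (SD, n = 3 each). All neighbouring genotypes overlapped, and the AEG1_MYC difference from WT was 0.08 ± 0.18 on the log2 scale (adjusted p = 0.85). It was -0.06 without AEG1_MYC replicate 1 and 0.00 without replicates 1 and 2. Reads of Trf and of Gm20425, which shares exon sequence with it on the same strand in the GRCm38 annotation, cannot be told apart.

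Hpx, the gene of the heme carrier hemopexin and an acute-phase gene in rodents, had the widest spread of the 10. It had 3381, 3049 and 3577 CPM in AEG1 livers and 3622, 3205 and 4164 CPM in MYC livers. It had 13529.7, 1614 and 3630.2 CPM in AEG1_MYC livers, against 4659, 3567 and 4043 CPM in WT livers. Both ends of its 8.38-fold range were therefore AEG1_MYC livers, and replicate 3 lay within the WT range. The AEG1_MYC difference from WT was 0.61 ± 0.57 on the log2 scale (adjusted p = 0.595). Its sign turned to -0.63 (adjusted p = 0.302) without replicate 1 and to -0.17 without replicates 1 and 2.

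Ambp encodes a precursor that is cleaved into the lipocalin alpha-1-microglobulin, a heme and radical scavenger, and the protease inhibitor bikunin. It was nearly level in the other genotypes, at 1847 ± 71.4 CPM in AEG1, 1852 ± 94.4 CPM in MYC and 1844 ± 47.8 CPM in WT. In AEG1_MYC livers it had 2359, 984.3 and 1819 CPM, so that replicate 1 was the highest of the 12 libraries and replicate 2 the lowest. The AEG1_MYC difference from WT was -0.10 ± 0.25 on the log2 scale (adjusted p = 0.858). It was 0.18 without replicate 2 and -0.02 without replicates 1 and 2.

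The acute-phase list had its highest and lowest sums in the same 2 livers as Hpx and Ambp, and its part in their values was not tested. Summed over its 18 genes it reached 44532 CPM in AEG1_MYC replicate 1, 11099 CPM in replicate 2 and 17384.5 CPM in replicate 3. The other libraries held 17182 to 23055 CPM in AEG1, 17808 to 27386 CPM in MYC and 20044.5 to 30689 CPM in WT. Lcn2, which encodes a siderophore-binding lipocalin, had 1210.3, 19.6 and 9.34 CPM in AEG1_MYC livers, against 3.42 to 8.60 CPM in WT livers. Its difference from WT of 6.25 ± 1.63 on the log2 scale did not pass (adjusted p = 0.134). It rested on replicate 1, since it was 1.43 without replicate 1 (adjusted p = 0.204) and 0.79 without replicates 1 and 2 (adjusted p = 0.892), and it passed at 6.82 without replicate 3 (adjusted p = 0.0254). Of the list, 0 of the 18 genes were called in any of the 3 comparisons with WT. Its genes went both ways in AEG1_MYC against WT, with 11 positive and 7 negative. In AEG1_MYC replicate 1 Hp had 11230 CPM, against 2417, 1711.5 and 2016 CPM in WT livers. Fgb had 4639 CPM there, within the WT values of 6697, 7362 and 4156 CPM.

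Ahsg and Fetub encode fetuin A and fetuin B, paired cystatin-family proteins of which fetuin A keeps calcium phosphate in solution and fetuin B protects the egg coat from premature hardening. Ahsg had 5928, 4988 and 4931 CPM in AEG1 livers. It had 5429, 5335 and 5379 CPM in MYC livers. It had 5020.5, 5356 and 5849.5 CPM in AEG1_MYC livers, against 7419, 7136 and 6787 CPM in WT livers. As with Alb, all 9 transgenic libraries lay under the WT range, a pattern whose share over all tested genes was not counted. Here the 3 transgenic means lay close together, at 74.3%, 75.6% and 76.0% of the WT mean. The differences from WT were -0.43 ± 0.14 in AEG1 (adjusted p = 1), -0.40 ± 0.14 in MYC (adjusted p = 0.999) and -0.40 ± 0.14 in AEG1_MYC (adjusted p = 0.205) on the log2 scale in edgeR. These 3 comparisons share the WT libraries, so a high value in those would enter all of them. DESeq2 called Ahsg in AEG1 (adjusted p = 0.0465) and AEG1_MYC (adjusted p = 0.00774) but not in MYC (adjusted p = 0.0564). Without AEG1_MYC replicates 1 and 2 the AEG1_MYC value was -0.28 (adjusted p = 0.876), and Gm30505 overlaps exons of Ahsg on the opposite strand.

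Fetub, the neighbour of Ahsg on chromosome 16, had its highest mean in AEG1_MYC. It averaged 336.7 ± 60.7 CPM in AEG1, 313.7 ± 23.2 CPM in MYC, 414.2 ± 96.6 CPM in AEG1_MYC and 389.2 ± 42.2 CPM in WT (SD, n = 3 each). The MYC libraries, at 289.4 to 335.6 CPM, lay under the WT range of 340.7 to 418.1 CPM, and the other genotypes overlapped WT. Differences from WT were -0.21 ± 0.19 in AEG1 (adjusted p = 1), -0.31 ± 0.19 in MYC (adjusted p = 0.999) and 0.09 ± 0.19 in AEG1_MYC (adjusted p = 0.829) on the log2 scale. The AEG1_MYC value was -0.10 without replicate 2 and -0.26 without replicates 1 and 2. The interaction of the transgenes was 0.61 ± 0.26, with a 95% interval of 0.03 to 1.19 and an adjusted p of 0.52, and it was 0.42 without AEG1_MYC replicate 2 and 0.26 without replicates 1 and 2.

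**Figure D2:**
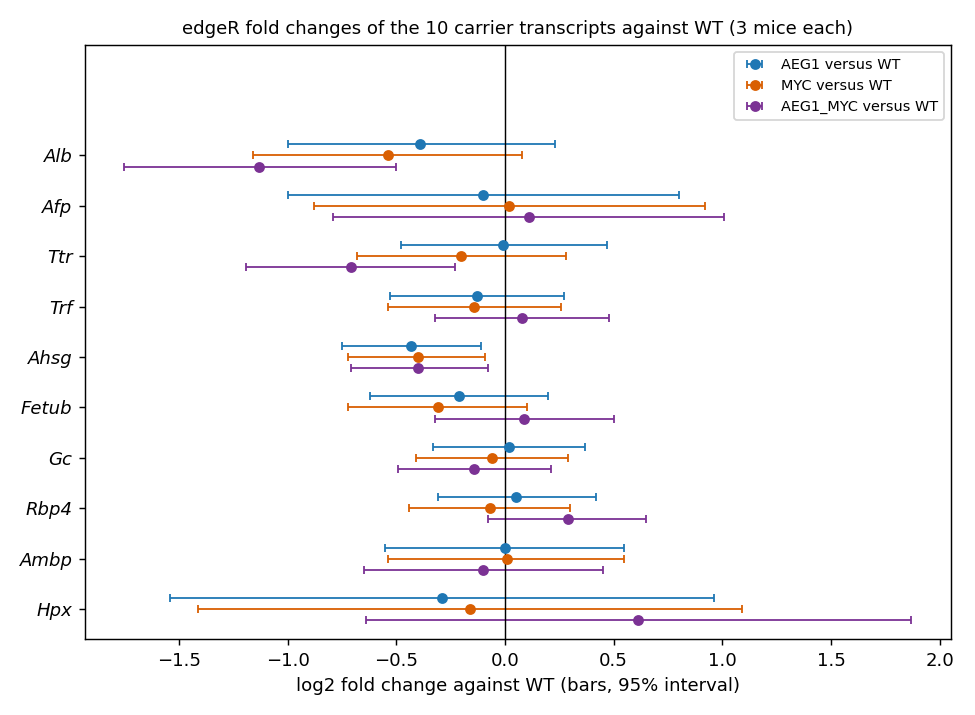
edgeR log2 fold change against WT (x axis, bars are 95% intervals) for the 10 transcripts (y axis) in AEG1, MYC and AEG1_MYC livers, 3 mice each. The AEG1_MYC intervals of Alb (-1.75 to -0.50), Ttr (-1.19 to -0.23) and Ahsg (-0.71 to -0.08) lie under 0, and no transcript passed the adjusted threshold.

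Across the 10 transcripts, edgeR called 0 in each of the 8 comparisons made. In AEG1 against WT, 0 of 13684 genes were called (0%), 1 of the 10 had an unadjusted p under 0.05 against 3.92% of all genes, and 2 (Alb and Ahsg) lay wholly under WT against 5.53% of all genes. In MYC against WT, 0 genes were called (0%), 1 of the 10 had an unadjusted p under 0.05 against 3.47% of all genes, and 3 (Alb, Ahsg and Fetub) lay wholly under WT against 6.09%. In AEG1_MYC against WT, 36 genes were called (0.263%), 3 of the 10 had an unadjusted p under 0.05 against 17.2% of all genes, and the same number (Alb, Ttr and Ahsg) lay wholly under WT against 9.65%. None of the 10 lay wholly above WT in these comparisons, against 5.16%, 5.47% and 9.81% of all genes in AEG1, MYC and AEG1_MYC. The median log2 difference over the 10 was -0.11 in AEG1, -0.15 in MYC and -0.01 in AEG1_MYC, beside medians over all tested genes within 0.013 of 0.

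AEG1_MYC against AEG1 had 44 called genes (0.322%), 2 of the 10 (Alb and Ttr) had an unadjusted p under 0.05 against 17.4% of all genes, and both lay wholly under AEG1 against 8.24%. AEG1_MYC against MYC had 28 called genes (0.205%), and 1 of the 10 (Ttr) had an unadjusted p under 0.05 against 15.2% of all genes. The interaction had 3 called genes (0.0219%), with 1 of the 10 (Fetub) at an unadjusted p under 0.05 against 9.25% of all genes. Carriers against non-carriers gave 15 called genes for c-Myc (0.11%) and 7 for AEG-1 (0.0512%). For c-Myc 2 of the 10 (Alb, and Ttr at -0.45 ± 0.15 with an adjusted p of 0.329, and at -0.21 without AEG1_MYC replicates 1 and 2) had an unadjusted p under 0.05 against 11.1% of all genes, and for AEG-1 1 of the 10 (Alb) against 9.43%. Counts of 1 to 3 in 10 are too few to set these transcripts apart from the shares of all genes beside them. DESeq2 called 1 of the 10 in AEG1 against WT, 3 in AEG1_MYC against WT, 1 in AEG1_MYC against AEG1 and 1 between c-Myc carriers and non-carriers, and limma called 0 in each of the 8 comparisons.

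**Figure D3:**
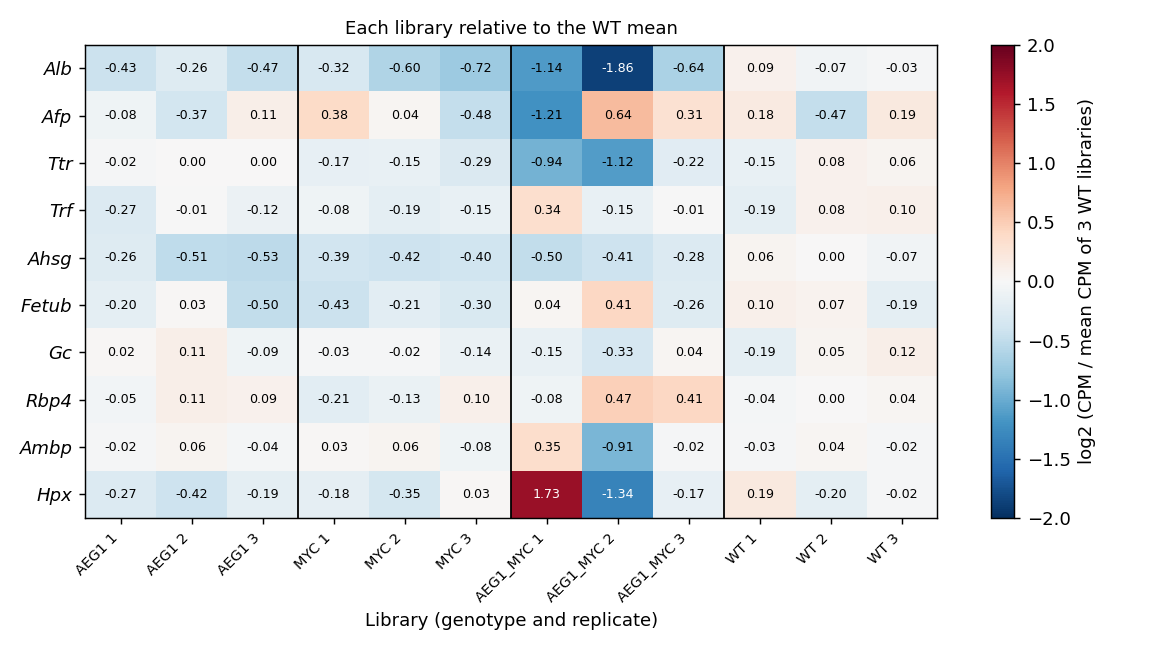
log2 ratio of each library's CPM to the mean of the 3 WT libraries (colour and printed value) for the 10 transcripts (y axis) in the 12 livers (x axis). The row of Alb is negative in all 9 transgenic livers, and AEG1_MYC replicates 1 and 2 differ most from the rest, with Hpx at 1.73 and -1.34.

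The transcripts differed in how far their levels ran alongside those of Alb. Over the 12 libraries the Pearson correlation of log2 CPM with Alb was 0.904 for Ttr, 0.681 for Gc, 0.585 for Ambp and 0.572 for Ahsg. It was 0.145 for Hpx, -0.0628 for Trf, -0.093 for Afp, -0.401 for Fetub and -0.541 for Rbp4. These are descriptions over libraries that share genotypes, scaling and the outlying AEG1_MYC livers. AEG1_MYC replicate 2 was the highest library for 3 of the 10 and the lowest for 5, replicate 1 the highest for 3 and the lowest for 1, and replicate 3 was neither for any of them.

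Summed over the 10, the level was 100679 to 112498 CPM in AEG1, 90460 to 107968 CPM in MYC, 56544 to 96234 CPM in AEG1_MYC and 126427 to 132523 CPM in WT. Without Alb the sum was 37516 to 39620 CPM in AEG1, 36800 to 37998 CPM in MYC, 32406 to 50608 CPM in AEG1_MYC and 39688 to 43514 CPM in WT. Alb thus made up most of the gap between the transgenic and the WT livers in this sum, although the AEG1 and MYC ranges also lay under the WT range without it. Per kilobase of transcript Alb had rank 1 and Trf rank 2 in every genotype. The mean Alb level per kilobase was 6.30 times that of Trf in AEG1, 5.73 times in MYC, 3.27 times in AEG1_MYC and 7.54 times in WT. Ttr had rank 3 in AEG1 and in MYC, rank 7 in AEG1_MYC and rank 4 in WT on this scale.

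The transcription factors known to act on the albumin promoter gave no call. Of 20 listed, 0 were called against WT in any genotype, and the median log2 difference in AEG1_MYC was -0.05 beside 0.013 for all genes. Onecut2, a liver-enriched factor of the onecut family, was at -0.23 ± 0.12 in AEG1_MYC against WT (adjusted p = 0.338), and at -0.10 without AEG1_MYC replicates 1 and 2. Dbp, a circadian activator of the albumin promoter, was named after its values had been seen.

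Dbp varied widely within each genotype. It had 15.1, 1.16 and 115.2 CPM in AEG1 livers, 0.691, 0.613 and 96.4 CPM in MYC livers, 49.4, 64.9 and 141.8 CPM in AEG1_MYC livers, and 26.1, 7.24 and 87.6 CPM in WT livers. Replicate 3 was the highest of each genotype, and all 3 AEG1_MYC livers stood above 2 of the 3 livers of every other genotype. Tef, a related circadian activator, was likewise highest in replicate 3 of each genotype, at 315.6 CPM in AEG1, 249.2 CPM in MYC, 323.6 CPM in AEG1_MYC and 200.4 CPM in WT. Nfil3, a repressor that binds the same sites, was lowest in replicate 3 of each, at 14.0 CPM in AEG1, 14.9 CPM in MYC, 17.9 CPM in AEG1_MYC and 22 CPM in WT. Both were named after their values had been seen, and the part of these factors in the Alb values was not tested.

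Of 8 listed regulators of Afp, 0 were called. Zbtb20 and Zhx2, repressors of Afp after birth, were at 0.48 ± 0.26 (adjusted p = 0.36) and 0.17 ± 0.14 (adjusted p = 0.55) in AEG1_MYC against WT, and at 0.47 and 0.17 without AEG1_MYC replicates 1 and 2. Of 10 other genes of fetal liver 6 were tested and 0 called, with a median of 2.44, 4 of them positive and 2 negative. Their summed level was 33.4, 269.6 and 60.4 CPM in AEG1_MYC replicates 1, 2 and 3, against 14.3 to 36.1 CPM in WT livers, so that replicate 2 stood apart and replicate 1 lay in the WT range. Lpl, the lipoprotein lipase, made up 16.9, 243.7 and 49.4 CPM of these AEG1_MYC sums. In WT replicates 1, 2 and 3 it made up 31.6, 17.6 and 8.71 CPM, most of each sum. The place of AEG1_MYC replicate 1 in the WT range thus rested on Lpl, and the sums say little of the other genes. Gpc3, a glypican, averaged 0.908 CPM in AEG1_MYC and 1.32 CPM in WT, and Igf2, a fetal growth factor, 0.617 CPM in AEG1_MYC and 0.679 CPM in WT. Cpe, a prohormone carboxypeptidase, had 9.75, 2.31 and 7.70 CPM in AEG1_MYC livers, against 0.982 to 1.49 CPM in WT livers (2.47 ± 0.64, adjusted p = 0.128). H19, an imprinted fetal RNA, had 4.13, 11 and 0.77 CPM in AEG1_MYC livers, against 0.268 to 1.67 CPM in WT livers (2.84 ± 0.90, adjusted p = 0.176). The differences were 2.70 for Cpe and 0.06 for H19 without AEG1_MYC replicates 1 and 2, and H19 was at 1.72 without replicate 2. DESeq2 called Cpe (adjusted p = 0.00432) and H19 (adjusted p = 0.0227).

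Proteins that take up the carriers or handle their cargo were likewise not called, in 0 of 10 and 0 of 15 tested genes for AEG1_MYC against WT, with medians of -0.10 and -0.11. Blvrb, a biliverdin reductase at the end of heme breakdown, had the lowest p among them. It had 147.1, 246.3 and 114.2 CPM in AEG1_MYC livers, against 83.1, 66.8 and 75.6 CPM in WT livers, a difference of 1.17 ± 0.24 with no overlap. Blvrb was not called by edgeR (adjusted p = 0.0895) but was called by DESeq2 (adjusted p = 0.000809), and the difference was 0.61 without AEG1_MYC replicates 1 and 2. The locus 1300002K09Rik, listed here as a receptor for retinol-binding protein, had 132.8, 87.2 and 191.5 CPM in AEG1_MYC livers, against 202.8, 342.8 and 273.0 CPM in WT livers (-0.99 ± 0.35, adjusted p = 0.196, and -0.50 without AEG1_MYC replicates 1 and 2). Among 15 tested further plasma carriers 0 were called, with a median of 0.06. Serpina6, the corticosteroid-binding globulin, had 638.3, 647.7 and 415.0 CPM in AEG1_MYC livers, against 239.5, 244.2 and 359.3 CPM in WT livers (1.01 ± 0.30, adjusted p = 0.16, and 0.0298 in DESeq2). Its difference was 0.57 without AEG1_MYC replicates 1 and 2.

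**Figure D4:**
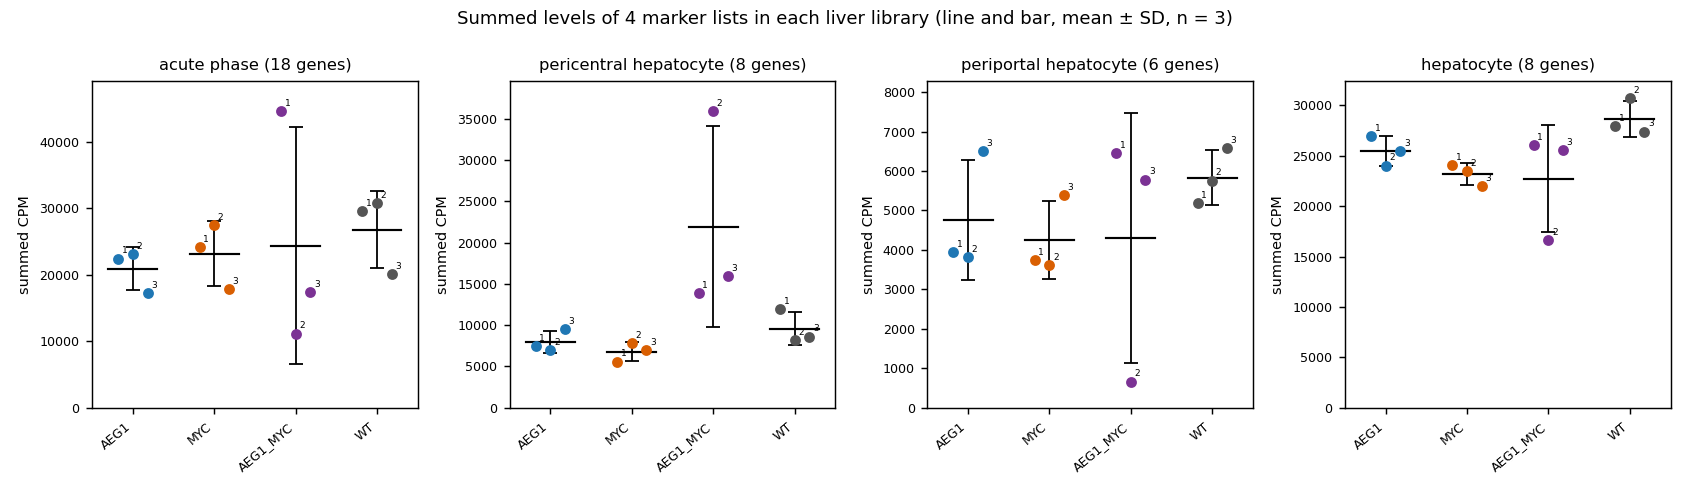
Summed CPM (y axis, linear) of 4 marker lists in each liver by genotype (x axis), with points numbered by replicate and lines and bars for means ± SD (n = 3). The pericentral sum of the AEG1_MYC livers spans 13897 to 35945 CPM, above all other livers, and AEG1_MYC replicate 2 has the lowest periportal sum, 654.5 CPM.

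Markers of hepatocytes and of their zones also differed between the livers, and their part in the Alb values was not tested. The 8 hepatocyte markers, none of them at 0 in any library, summed to 24008 to 26941 CPM in AEG1, 21967 to 24049 CPM in MYC, 16645 to 26039 CPM in AEG1_MYC and 27372 to 30732 CPM in WT, with 0 of 8 called. As for Alb, every transgenic liver lay under the WT range in this sum, but AEG1_MYC replicate 1, with the second lowest Alb level, lay above every MYC liver. No marker of the list did so singly. Apob, the largest part of the sum, had 10718 CPM in AEG1 replicate 1, against 7923, 9689.5 and 9431 CPM in WT livers. Differences from WT were negative for 7, 8 and 7 of the 8 markers in AEG1, MYC and AEG1_MYC. The pericentral sum was 6943 to 9519 CPM in AEG1, 5560 to 7815 CPM in MYC, 13897 to 35945 CPM in AEG1_MYC and 8203 to 11917 CPM in WT, so that MYC lay wholly under WT and AEG1_MYC wholly above. Pericentral markers were the only one of the 19 lists with calls against WT, 2 of 8 genes in AEG1_MYC. Rhbg, an ammonium transporter, rose in AEG1_MYC livers to 101.1, 239.5 and 72.9 CPM, against 14.6, 12.1 and 13.4 CPM in WT livers (3.37 ± 0.44, adjusted p = 0.0156). Slc1a2, a glutamate transporter, rose to 1185, 2292 and 741.9 CPM, against 302.2, 113.7 and 138.5 CPM in WT livers (2.93 ± 0.45, adjusted p = 0.0334). These calls were not stable. Leaving out any 1 WT library ended that of Rhbg (adjusted p = 0.0923, 0.141 and 0.0969 without WT replicates 1, 2 and 3). That of Slc1a2 was lost without WT replicate 2 (adjusted p = 0.195), without WT replicate 3 (0.149), without AEG1_MYC replicate 2 (0.0551) and without any 1 AEG1 or MYC library (0.0515 to 0.0772). Both stayed above WT in every such fit, at 2.70 to 3.69 for Rhbg and 2.38 to 3.5 for Slc1a2. Without AEG1_MYC replicates 1 and 2 neither was called, at 2.45 for Rhbg (adjusted p = 0.0627) and 2.01 for Slc1a2 (adjusted p = 0.339). The 6 periportal markers summed to 3947, 3809 and 6505 CPM in AEG1 livers and 3744, 3618 and 5394 CPM in MYC livers. They summed to 6452, 654.5 and 5778 CPM in AEG1_MYC livers, against 5177 to 6577 CPM in WT livers. Replicates 1 and 2 of AEG1 and of MYC thus lay under the WT range, while AEG1_MYC replicates 1 and 3 lay within it.

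Among markers of other liver cells, the stellate sum was 401.9 to 504.5 CPM in AEG1, 227.8 to 367.2 CPM in MYC and 139.6 to 250.6 CPM in AEG1_MYC, against 306.4 to 363.8 CPM in WT, with 0 of 6 called. AEG1 thus lay above the WT range and AEG1_MYC under it. The Kupffer sum was 201.1 to 382.6 CPM in AEG1, 208.0 to 285.4 CPM in MYC and 94.6 to 719.4 CPM in AEG1_MYC, against 139.6 to 501.4 CPM in WT. The bile duct sum was 40.8 to 65.8 CPM in AEG1, 62.1 to 82.0 CPM in MYC and 27.7 to 71.7 CPM in AEG1_MYC, against 41.8 to 75.5 CPM in WT. None of the stellate, Kupffer, endothelial, bile duct or lymphocyte markers was called against WT in any genotype.

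The 3 other genes whose log2 CPM followed Alb most closely over the 12 libraries were Dnajc7 (Pearson r = 0.966), Ppp6r1 (0.963) and Itih2 (0.950). Itih2, a heavy chain of the inter-alpha-inhibitor that bikunin joins, had 1146, 1167 and 1141 CPM in AEG1 livers and 1157, 1207 and 1037 CPM in MYC livers. It had 944.3, 695.4 and 1162 CPM in AEG1_MYC livers, against 1433.5, 1592 and 1437 CPM in WT livers. It was picked for its likeness to Alb and, like Alb, lay under the WT range in all 9 transgenic livers. Closest to Afp were Plekha5 (0.911), 1700012B15Rik (0.901) and Sgms2 (0.882). These values are the highest among all tested genes with a mean of at least 1 CPM, so they describe these libraries only.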

How the data were processed

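Total RNA from 12 mouse livers was extracted with a Qiagen kit and made into Illumina TruSeq RNA libraries, per the labels' protocols. For each library the authors deposited raw counts of reads per gene, in a table of 22609 genes followed by 5 lines of totals. The submitters' processing notes name CASAVA 1.8.2, TopHat2 2.0.7, HTSeq and the mouse build mm9. Which HTSeq version, annotation and strand setting were used is not given in the sources used here. Whether reads on overlapping genes were counted for a gene or set aside as ambiguous, in a line of totals, is therefore not known. Alignments at several places (46.5% to 58.0% of the values in the tables) and reads in no feature (11.5% to 15.5% of unique reads) stand in the lines of totals, which were kept out of library sizes and tests.

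The analysis used R 4.3.3 and edgeR 4.0.16 (TMM scaling with factors of 0.914 to 1.19, filterByExpr, 1 coefficient per genotype over 12 libraries, robust quasi-likelihood F test, two-sided). A gene was called at a Benjamini-Hochberg adjusted p under 0.05 over 13684 genes. SE is the size of the log2 fold change over the square root of F, and intervals are 95%. There were 8 contrasts: 3 against WT, AEG1_MYC against each single transgene, the interaction, and carriers against non-carriers of each transgene. No 2 libraries of 1 genotype agreed within sampling noise (chi-square per degree of freedom 33.7 to 345), so each counts once. The p-values measure the spread between these mice, pooled per gene over the 4 genotypes. The spread of the AEG1_MYC livers thus also enters the tests of AEG1 and of MYC against WT. The fit was tested on simulated counts with changes set in AEG1_MYC. Against WT it called 44 of 100 genes changed 2-fold and 90 of 100 changed 4-fold, with 12 false calls. The simulation gave every genotype the same spread, whereas the real AEG1_MYC libraries agreed least among themselves.

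The members and the 19 gene lists were chosen with earlier results of these data known. The genes named were the 10 members, Myc and Mtdh. For each list the rule takes up to 3 called genes, or else the 2 with the lowest p in AEG1_MYC against WT, and not every such gene is printed. It adds the 3 genes most like Alb and Afp in Pearson r. Y-linked genes, Dbp, Tef, Nfil3, Lpl, Gpc3 and Igf2 were named after their values were seen. Alternatives were RLE and upper-quartile scaling, scaling without the members, other filters on low counts, no robust step, DESeq2 1.42.0, limma 3.58.1 with library weights, the compared libraries alone, each library left out, and AEG1_MYC replicates 1 and 2 left out. Gene positions, transcript lengths and promoters are from GRCm38 (GENCODE and RefSeq) and were matched by symbol, with no coordinate taken from mm9.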

Additional observations from a re-analysis of the deposited data

How the results depend on the processing

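No paired analysis was possible because the mouse numbers in the labels are not shared between genotypes and the replicate numbers used here follow the order of deposit, although Dbp, Tef and Nfil3 varied alike by that number. Of the 10 transcripts 0 were called in each of the 8 comparisons. DESeq2 called 1 in AEG1 against WT (Ahsg), 3 in AEG1_MYC against WT (Alb, Ttr and Ahsg), 1 in AEG1_MYC against AEG1 (Ttr) and 1 for c-Myc carriers (Alb). Leaving out 1 library gave 0 to 2 calls in AEG1_MYC against WT (Alb and Ttr), 0 to 2 against AEG1 (Alb and Ttr), 0 to 1 against MYC (Ttr) and 0 to 1 for c-Myc carriers (Ttr), in each case only without AEG1_MYC replicate 3. The other settings gave 0 members called. Over all genes, calls in AEG1_MYC against WT numbered 36, against 653 in DESeq2, 23 in limma, 2 in the compared libraries alone, 4 without AEG1_MYC replicates 1 and 2, and 6 to 687 with 1 library left out. In AEG1_MYC against AEG1 the 44 calls became 709 in DESeq2, 2 in the compared libraries alone, 7 without AEG1_MYC replicates 1 and 2, and 4 to 630 with 1 library left out. In AEG1_MYC against MYC the 28 became 432, 7 and 3 in these settings, and 6 to 450. The highest of each range came without AEG1_MYC replicate 3. The 3 interaction calls became 148 in DESeq2, 5 in limma, 5 with no robust step, 1 without AEG1_MYC replicates 1 and 2, and 1 to 32 with 1 library left out. The 15 calls of c-Myc carriers became 296 in DESeq2, 39 in limma, 9 with RLE scaling or no filter, 7 with upper-quartile scaling, 8 without AEG1_MYC replicates 1 and 2, and 2 to 138 with 1 library left out. The 7 of AEG-1 carriers became 90 in DESeq2, 2 without AEG1_MYC replicates 1 and 2, and 1 to 65 with 1 library left out. DESeq2 gave 15 calls in AEG1 and 22 in MYC against WT, where edgeR gave 0, and MYC against WT had 1 call without AEG1_MYC replicate 2.

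Several differences changed direction. In AEG1 against WT, Ttr was 0.00 with upper-quartile scaling and 0.02 in limma. In AEG1_MYC against WT, limma gave -0.27 for Afp, -0.04 for Fetub and 0.01 for Ambp. Without AEG1_MYC replicates 1 and 2, which leaves replicate 3 as a lone library assumed to vary like the other genotypes, Trf was 0.00, Fetub -0.26, Gc 0.04, Hpx -0.17 and the Alb interaction 0.28. With 1 library left out, values in AEG1 against WT spanned -0.30 to 0.01 for Afp, -0.07 to 0.02 for Ttr, -0.06 to 0.08 for Gc and -0.04 to 0.03 for Ambp. In MYC against WT they spanned -0.19 to 0.22 for Afp, -0.14 to 0.01 for Gc and -0.02 to 0.05 for Ambp. In AEG1_MYC against WT they spanned -0.26 to 0.50 for Afp, -0.06 to 0.18 for Trf, -0.10 to 0.25 for Fetub, -0.38 to 0.18 for Ambp and -0.63 to 1.07 for Hpx, and the Alb interaction spanned -0.53 to 0.05. The causes of these shifts were not tested. Alb kept its sign against WT in all settings run, at -1.44 to -0.64 in AEG1_MYC, and so did Ahsg, at -0.44 to -0.28. No scaling moved the median of all genes by over 0.1. With 3 mice per genotype the median SE was 0.208, and Afp rests on 50 to 201 reads per library.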
